A study of Mus musculus with 10 samples.

Results

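Interferon-stimulated genes are the genes that cells switch on when interferon reaches their receptors. A list of 35 of them was followed in the skin of mice on a C57BL/6 background, aged 5 months, and each symbol was matched in the deposited tables, which hold 23282 entries. The 10 libraries form 2 groups by their genotype: 5 labelled as lacking STAT3 in keratinocytes (STAT3cKO) and 5 labelled wild-type (WT). Stat3 itself was not lower in the libraries labelled STAT3cKO: in order of replicate number, here and below, it was 9.7, 9.08, 10.27, 9.27 and 10.29 in WT and 10.25, 9.98, 10.81, 9.49 and 10.13 in STAT3cKO (log2 of scaled reads plus 1, change 0.41, SE 0.36, 95% interval −0.35 to 1.17, limma adjusted p = 0.70). Reads from the 3′ end may not show a deletion elsewhere in the gene, the deleted part is not stated, and other skin cells keep the gene, so these values do not check the labels. The group names below are those of the labels. The promoter that drove the deletion, the deleted exons, and the sex, litter and hair phase of the mice are not stated in the labels. The labels do not tie libraries to animals, and p-values then measure the spread between libraries, which may be technical. The list was split by role into 20 effectors typical of type I interferon, 3 RNA sensors, 2 transcription factors of the type I arm and 10 genes typical of interferon-gamma.

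Type I interferons signal through a receptor that activates JAK1 and TYK2. A complex that contains STAT2 and IRF9 then binds the interferon-stimulated response element (ISRE). Interferon-gamma, made mainly by T and NK cells, uses another receptor and acts through the gamma-activated site (GAS). STAT3, the factor the labels name as ablated, is itself activated by type I interferon and by cytokines of the interleukin 6 family, and it binds sites of the GAS type. In skin, keratinocytes, macrophages, dendritic cells and fibroblasts all respond to interferon, so whole skin gives the sum over these cells.

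The promoters show what the genes share at the sequence level. RefSeq promoter windows on GRCm38.p6, from 250 bases before to 50 bases after each transcript start, were found for 29 of the 35 genes. Dhx58, Ifi27l2a, Mx1, Mx2, Oas2 and Usp18 had no entry. The ISRE was searched as GAAA, any 2 bases and GAAA again, and the GAS as TTC, any 3 bases and GAA, on both strands, with overlapping matches counted separately. The GAS letters read the same on either strand, and matches of the 2 motifs may overlap each other. The ISRE letters stood in a window of 14 of 29 genes (48.3%), against 3.99% of all 27025 genes of the promoter table. By role they stood in 8 of 15 type I effectors, 2 of 2 RNA sensors, 0 of 2 type I transcription factors and 4 of 10 interferon-gamma-type genes. The GAS letters stood in 10 of 29 (34.5%), against 9.55% of all genes. A letter match is a description and not a proven binding site. Stretches of 100 bases from upstream of the start are shown for 5 genes that the results below turn on, each read 5′ to 3′ along its gene with the ISRE or GAS letters in capitals. Isg15, on the minus strand at chr4:156200835-156200934, has 3 overlapping ISRE matches. Ifit1, on the plus strand at chr19:34640754-34640853, has 2, both on the opposite strand of the gene. Cxcl10, on the minus strand at chr5:92349040-92349139, has 1. Irf1, on the plus strand at chr11:53769873-53769972, has a GAS match and no ISRE match. Ifitm6, on the minus strand at chr7:141016909-141017008, has no ISRE match in its window, and its GAS match, which begins 10 bases before the start, lies outside the stretch shown. The RefSeq start of Ifitm6 lies within the gene as GENCODE annotates it, whose farthest start is at 141017924, so this stretch lies inside that annotated gene.
Isg15: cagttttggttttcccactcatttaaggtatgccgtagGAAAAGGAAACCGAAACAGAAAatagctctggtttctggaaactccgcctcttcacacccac
Ifit1: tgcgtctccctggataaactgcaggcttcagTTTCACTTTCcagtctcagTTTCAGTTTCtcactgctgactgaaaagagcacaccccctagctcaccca
Cxcl10: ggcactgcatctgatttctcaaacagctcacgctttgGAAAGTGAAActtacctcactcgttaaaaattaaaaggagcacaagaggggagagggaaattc
Irf1: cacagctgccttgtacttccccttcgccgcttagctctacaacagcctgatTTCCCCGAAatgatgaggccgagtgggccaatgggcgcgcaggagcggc
Ifitm6: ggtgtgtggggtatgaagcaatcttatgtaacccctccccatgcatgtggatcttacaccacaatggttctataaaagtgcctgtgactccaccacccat

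**Figure D1:**
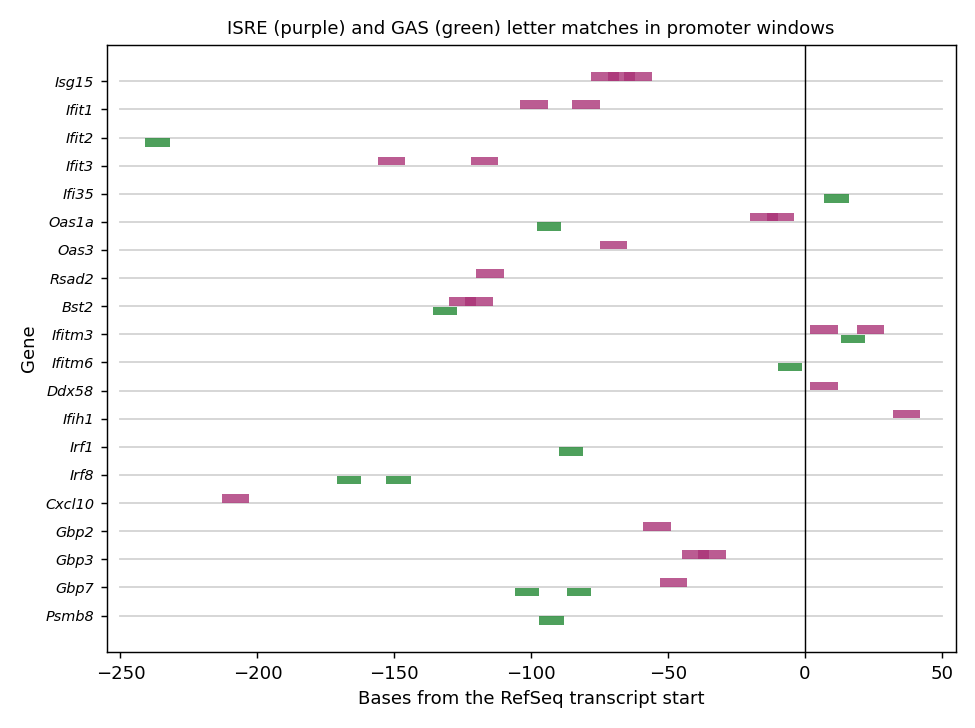
Position of ISRE letters (purple, 10 bases) and GAS letters (green, 9 bases) in the RefSeq promoter windows of the 20 genes that hold at least 1 match, in bases from the transcript start (vertical line). Isg15 holds 3 overlapping ISRE matches, and Ifitm6 holds a single GAS match next to its start.

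Values are log2 of scaled reads plus 1, and since the kit reads the 3′ end of each transcript they need no division by length. Estimated depth was 7130000 to 18500000 reads per library. Because a gene without a read sits at about 0, libraries that lack reads weigh heavily on these genes. Of the 26 genes on the list that could be tested, STAT3cKO 2 lacked a read of 10 (38.5%), against 22.7% of all 11536 tested genes in that library. STAT3cKO 3 lacked 4 (15.4%, against 9.51%) and WT 3 lacked 2 (7.69%, against 11.0%). The other libraries lacked at most 1. Across all 35 genes STAT3cKO 2 had no read of 17, WT 3 and STAT3cKO 3 of 10 each, and STAT3cKO 5 of 2. STAT3cKO 2 also differed in sex-linked genes, with 1115 estimated reads of Ddx3y and 0 of Xist, against 0 to 1 and 371 to 3118 in the other libraries.

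**Figure D2:**
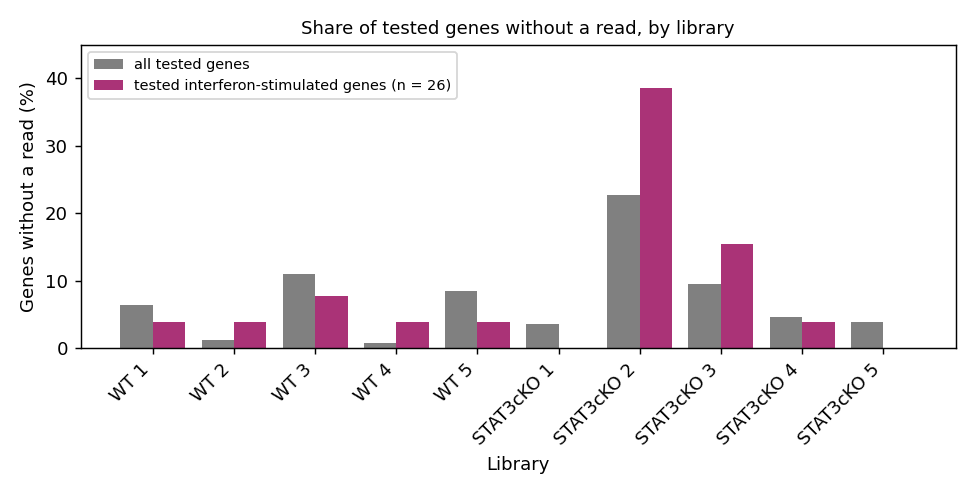
Percent of tested genes without a read in each library, for all 11536 tested genes (grey) and for the 26 tested interferon-stimulated genes (purple). STAT3cKO 2 stands apart on both measures, at 22.7% and 38.5%.

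Testing needed a value of 5 or more in 5 or more libraries, which 26 of the 35 genes reached. The other 9 (Ifit2, Oas1a, Oas2, Oas3, Oasl1, Mx1, Mx2, Dhx58 and Cxcl9) were too sparse. Of the 26, 0 rose, 1 fell (Ifitm6) and 25 did not pass at a limma adjusted p under 0.05. Over all tested genes 0.988% were called, 0.529% higher and 0.459% lower in STAT3cKO. At an unadjusted p under 0.05 the count was also 1 of 26, against 1257 of all 11536 tested genes. The lowest adjusted p among the other 25 was 0.458. The change, always STAT3cKO minus WT on the log2 scale, was positive for 8 of the 26 and negative for 18, against 43.8% positive over all tested genes. The median change was −0.62, against −0.16 over all tested genes. Among the 16 genes with a read in every library the standard errors ran from 0.38 to 1.68. Among the 10 tested genes that lacked a read somewhere they ran from 1.46 to 2.12. Ifitm6 was 1 of these, with a change of −6.76 (SE 1.58). In the others a change of several units could be missed.

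**Figure D3:**
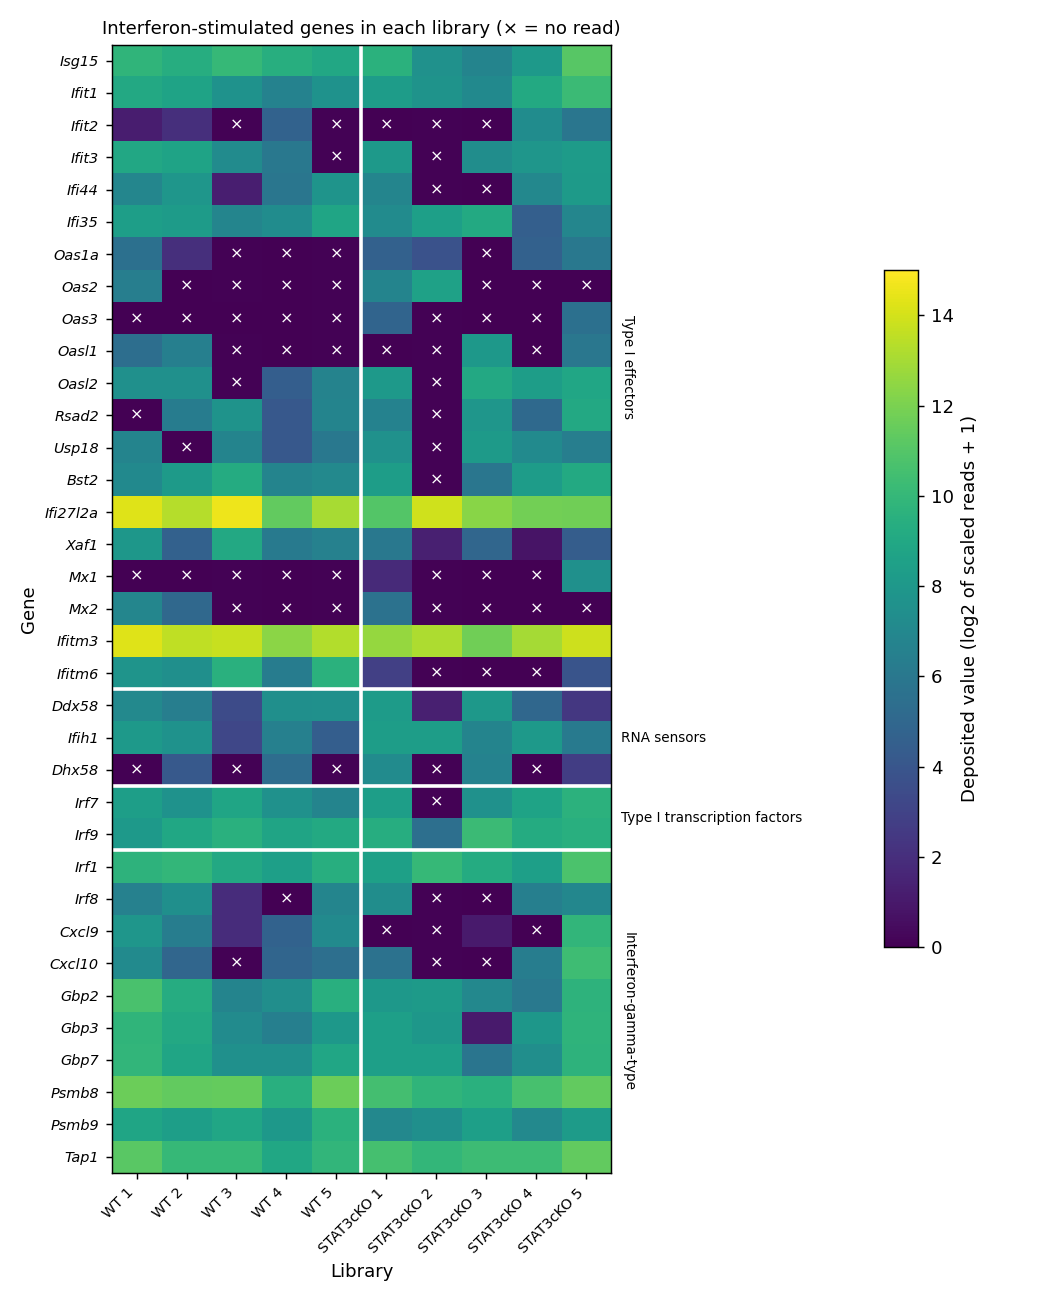
Deposited values (log2 of scaled reads plus 1) of the 35 genes by library, grouped by role, with a cross where a library had no read. The highest rows are Ifi27l2a and Ifitm3, the row that differs between the groups throughout is Ifitm6, and the column STAT3cKO 2 holds 17 crosses.

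The 13 tested type I effectors gave 0 rises, 1 fall and 12 genes that did not pass. Their median change was −0.65, but it was 0.04 in the 4 deeper libraries alone, 0.17 when values of no read were treated as missing and 0.26 over all 20 effectors without a filter, so the list had no stable direction. The fall was Ifitm6 (chromosome 7, 141015699 to 141017924, minus strand), a member of the interferon-induced transmembrane family. WT libraries read 7.76, 7.47, 9.50, 6.32 and 9.60, and STAT3cKO libraries 2.84, 0.06, 0.01, 0.00 and 3.92. Every WT library lay above every STAT3cKO library, and STAT3cKO 2, 3 and 4 had no read. In estimated reads WT libraries held 66 to 531 and the other STAT3cKO libraries 5 and 25. WT averaged 8.13 ± 1.41 and STAT3cKO 1.37 ± 1.88 (SD, n = 5 each). By limma the difference was −6.76, with an SE of 1.58, a 95% interval of −10.09 to −3.43 and an adjusted p of 0.0495.

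The call of Ifitm6 was marginal. Ifitm6 entered the test only because all 5 WT libraries reached a value of 5, which no STAT3cKO library did, so the filter favoured a difference. Of the 12 tested genes with that pattern, 3 were called. Groups did not overlap for 1 of the 26 genes with STAT3cKO lower and for 0 with STAT3cKO higher, against 1.72% and 1.71% of all tested genes (3.42% in either direction). Without 1 library the call held in 1 of 10 fits (without WT 4, adjusted p = 0.0459) and was lost in the other 9, with adjusted p up to 0.131 without WT 3. It was also lost without STAT3cKO 2 and WT 3 together (−6.09, adjusted p = 0.143), with no-read values treated as missing (−4.75, adjusted p = 0.0975, a fit that drops 3 STAT3cKO libraries), and within the 4 deeper (−5.65, adjusted p = 0.458) and the 6 shallower libraries (−7.50, adjusted p = 0.597). With a pseudocount of 16 the change was −3.96 (adjusted p = 0.0162).

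Ifitm6 is known from myeloid cells, and their markers are given beside it. The summed level of 12 macrophage and monocyte markers was 13.28 to 14.60 in WT and 12.07 to 14.34 in STAT3cKO, with 0 of 12 called and 1 of 12 changes positive. Of these 12 markers 2 had an unadjusted p under 0.05, both lower in STAT3cKO: Lyz2 at 9.69 to 11.03 in WT and 6.55 to 9.71 in STAT3cKO (change −2.0, SE 0.55, adjusted p = 0.10) and Adgre1 at 6.98 to 10.53 and 0.06 to 9.32 (change −3.12, SE 1.45, adjusted p = 0.446). The other 10 had changes from −1.54 (Ms4a7) to 0.21 (Fcgr1). The 5 neutrophil markers with an entry summed to 8.19 to 9.65 in WT and 7.87 to 14.78 in STAT3cKO. The 2 that could be tested, S100a8 and S100a9, had positive changes. A fit without the filter gave 1.76 for Mmp8, −1.33 for Csf3r and −1.17 for Retnlg. The 9 dendritic and Langerhans cell markers summed to 13.51 to 15.81 in WT and 13.27 to 14.66 in STAT3cKO. Of the 7 tested, 0 were called and 1 change was positive. H2-Aa was at −2.52 (SE 0.55, limma adjusted p = 0.0592) and Epcam at 0.91. The 5 mast cell markers had 0 calls and 3 of 5 changes positive, from −2.12 (Cpa3) to 1.42 (Kit). No marker of these lists was without a read in all STAT3cKO libraries. Lists of other cells differed as well. The 8 adipocyte markers summed to 16.97 to 19.39 in WT and 15.53 to 17.98 in STAT3cKO, with 1 of 8 called lower and 0 of 8 changes positive. The 8 keratinocyte markers summed to 15.55 to 17.13 in WT and 16.92 to 17.91 in STAT3cKO, with 0 called and 8 of 8 changes positive. Positive changes numbered 0 of 6 for skeletal muscle and 0 of 3 tested for T and NK cells, with 0 called in either list. They numbered 3 of 6 for fibroblasts, with 1 called lower (Dpt, −1.53, adjusted p = 0.0287), and 3 of 6 for endothelium, with 0 called. The part of these cells in the Ifitm6 result was not tested. In whole skin, fewer cells of a type and less RNA per cell cannot be told apart.

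The neighbours of Ifitm6 on chromosome 7 did not share its pattern. Ifitm3 (141009586 to 141010770, minus strand), which blocks the entry of enveloped viruses, was abundant in every library, at 14.25, 13.59, 13.75, 12.40 and 13.30 in WT and 12.62, 13.16, 11.72, 13.00 and 13.86 in STAT3cKO. Its groups overlapped, and the change was −0.59 (SE 0.38, 95% interval −1.40 to 0.23, adjusted p = 0.59). Ifitm2 was likewise even, with a change of 0.46 (SE 0.28, adjusted p = 0.564). Ifitm1 was 6.28, 7.88, 5.90, 7.66 and 6.80 in WT and 8.29, 11.07, 8.62, 7.64 and 10.57 in STAT3cKO. It was high in STAT3cKO 2 and 5, and the groups overlapped through STAT3cKO 4. Its change of 2.33 (SE 0.75) had an unadjusted p of 0.00614 and did not pass (adjusted p = 0.176).

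**Figure D4:**
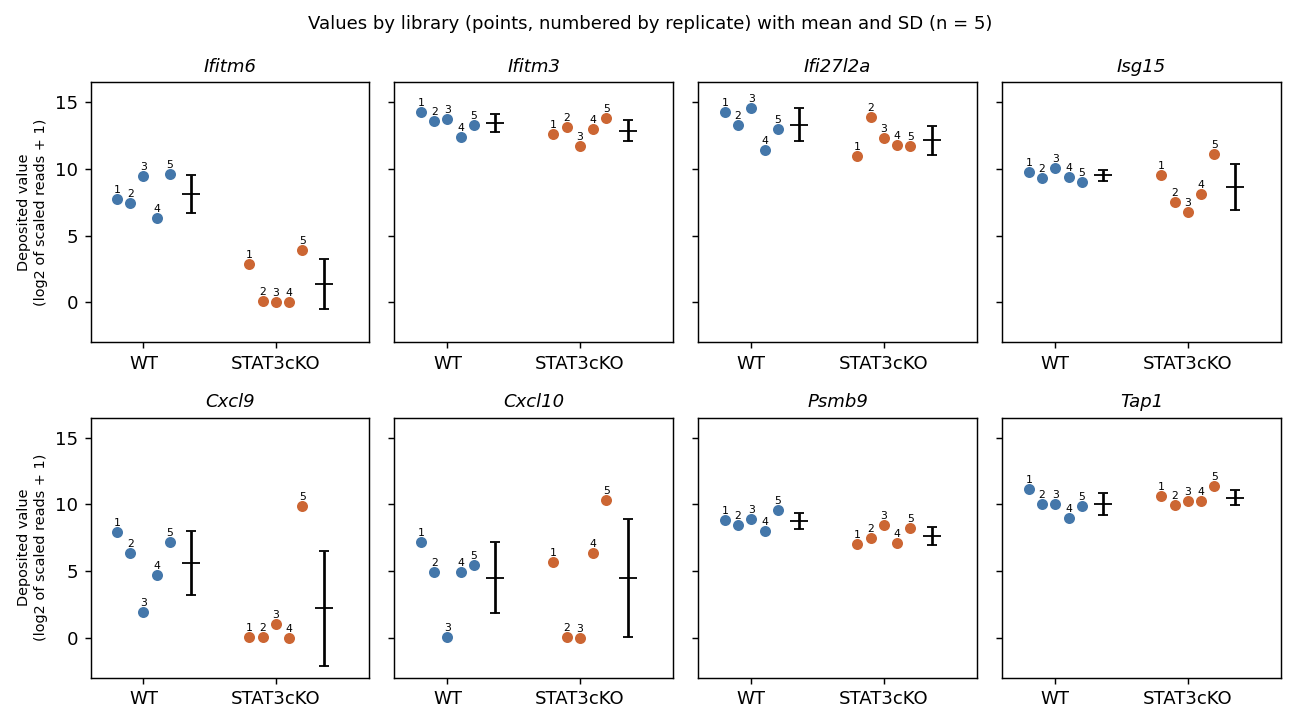
Values (log2 of scaled reads plus 1) of 8 genes in WT (blue) and STAT3cKO (orange) libraries, each point numbered by its replicate, with mean and SD (n = 5). Ifitm6 is the panel whose groups do not overlap, at 6.32 to 9.60 against 0.00 to 3.92, and STAT3cKO 5 stands far above the other STAT3cKO libraries for Cxcl9 and Cxcl10.

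Isg15 (chromosome 4, 156199424 to 156200818, minus strand) encodes a ubiquitin-like modifier and is among the most responsive genes to type I interferon. It was even in WT, at 9.81, 9.32, 10.07, 9.41 and 9.0, and spread in STAT3cKO, at 9.57, 7.56, 6.77, 8.12 and 11.09. STAT3cKO 2, 3 and 4 lay below all WT libraries, STAT3cKO 1 lay within their range and STAT3cKO 5 above it. The change was −0.90 (SE 0.65, 95% interval −2.28 to 0.48, adjusted p = 0.633). Without STAT3cKO 5 it was −1.52 (adjusted p = 0.302), and in the deeper libraries alone 0.04 (adjusted p = 0.993). Usp18, the protease that removes Isg15 from proteins and restrains the type I receptor, had no read in WT 2 and STAT3cKO 2 and was 4.15 to 8.17 elsewhere (change 1.14, SE 1.89, adjusted p = 0.844).

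The Ifit genes, whose products bind foreign RNA, lie together on chromosome 19. Ifit1 was 9.06, 8.73, 7.62, 6.64 and 7.63 in WT and 8.27, 7.70, 7.14, 9.11 and 10.23 in STAT3cKO, which overlap (change 0.56, SE 0.68, 95% interval −0.88 to 1.99, adjusted p = 0.788). Ifit3 was 5.98 to 8.97 in WT and 7.35 to 8.21 in STAT3cKO wherever it had a read, and WT 5 and STAT3cKO 2 had none (change 0.13, SE 1.92, adjusted p = 0.987). Reads may be split between Ifit3 and its near copy Ifit3b, so the level of Ifit3 is uncertain. Ifit2 was too sparse to test: it had at most 4.70 in WT and 7.31 and 5.91 in STAT3cKO 4 and 5, with no read in the other STAT3cKO libraries.

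The Oas enzymes make the second messenger that activates RNase L, and most were barely sequenced. Oas3 had no read in any WT library and values of 4.86 and 5.54 in STAT3cKO 1 and 5, which are 23 and 81 estimated reads. Oas2 had a read in WT 1 (6.42) and in STAT3cKO 1 and 2 (6.79 and 8.61) and in no other library. Oas1a had no read in 3 WT libraries and in STAT3cKO 3, and reached at most 5.98 (STAT3cKO 5). Its near copy Oas1g had reads in the same libraries, and whether reads of the pair were shared was not tested. Oasl1 had no read in 3 libraries of each group. The family member that could be tested, Oasl2, was 7.53, 7.54, 0.06, 4.49 and 6.72 in WT and 8.10, 0.06, 9.05, 8.36 and 8.88 in STAT3cKO. Its change of 1.62 (SE 1.93, adjusted p = 0.779) came with no read in WT 3 and STAT3cKO 2, and 4 of 5 STAT3cKO libraries lay above all WT libraries.

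Mx1, a GTPase against influenza viruses that carries an inactivating deletion in C57BL/6 mice, had no read in WT and reached 7.54 (329 estimated reads) in STAT3cKO 5 with 1.80 in STAT3cKO 1. Mx2 had reads in WT 1 and 2 (6.87 and 5.09) and STAT3cKO 1 (5.65). Rsad2, which encodes the antiviral enzyme viperin, was highest in STAT3cKO 5 at 9.07 and had no read in WT 1 and STAT3cKO 2 (change 0.80, SE 1.94, adjusted p = 0.902). Bst2, or tetherin, which holds budding virions at the cell surface, was 6.79 to 9.20 in WT and 5.86 to 9.09 in STAT3cKO outside STAT3cKO 2, where it had no read (change −1.33, SE 1.5, adjusted p = 0.765). Without STAT3cKO 2 and WT 3 the change of Bst2 was 0.63.

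Ifi27l2a was with Ifitm3 the most abundant gene of the list. It was 14.28, 13.32, 14.60, 11.42 and 13.01 in WT and 10.98, 13.90, 12.35, 11.83 and 11.73 in STAT3cKO. WT 4 was low and STAT3cKO 2 high for their groups, which overlapped (change −1.17, SE 0.67, 95% interval −2.65 to 0.31, adjusted p = 0.559). In the 4 deeper libraries alone it passed, with WT at 14.28 and 13.32 and STAT3cKO at 11.83 and 11.73 (−2.02, adjusted p = 0.0293), and in the 6 shallower ones it did not (−0.60, adjusted p = 0.927).

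Xaf1, a pro-apoptotic antagonist of XIAP, had the second lowest adjusted p of the list. Its values were 7.94, 4.66, 9.07, 6.18 and 6.58 in WT and 5.99, 1.29, 4.97, 0.77 and 4.42 in STAT3cKO. STAT3cKO 2 and 4 held about 1 read each, and the groups overlapped through WT 2. The change was −3.40 (SE 1.62, 95% interval −6.80 to 0.00, adjusted p = 0.458), and it was −1.82 after quantile normalization and −2.30 without STAT3cKO 2 and WT 3. Ifi35, a partner of NMI, was 6.80 to 8.81 in WT and 4.57 to 9.13 in STAT3cKO (change −0.65, adjusted p = 0.819). Ifi44 had no read in STAT3cKO 2 and 3 and about 1 in WT 3 (change −1.5, SE 2.01, adjusted p = 0.805).

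**Figure D5:**
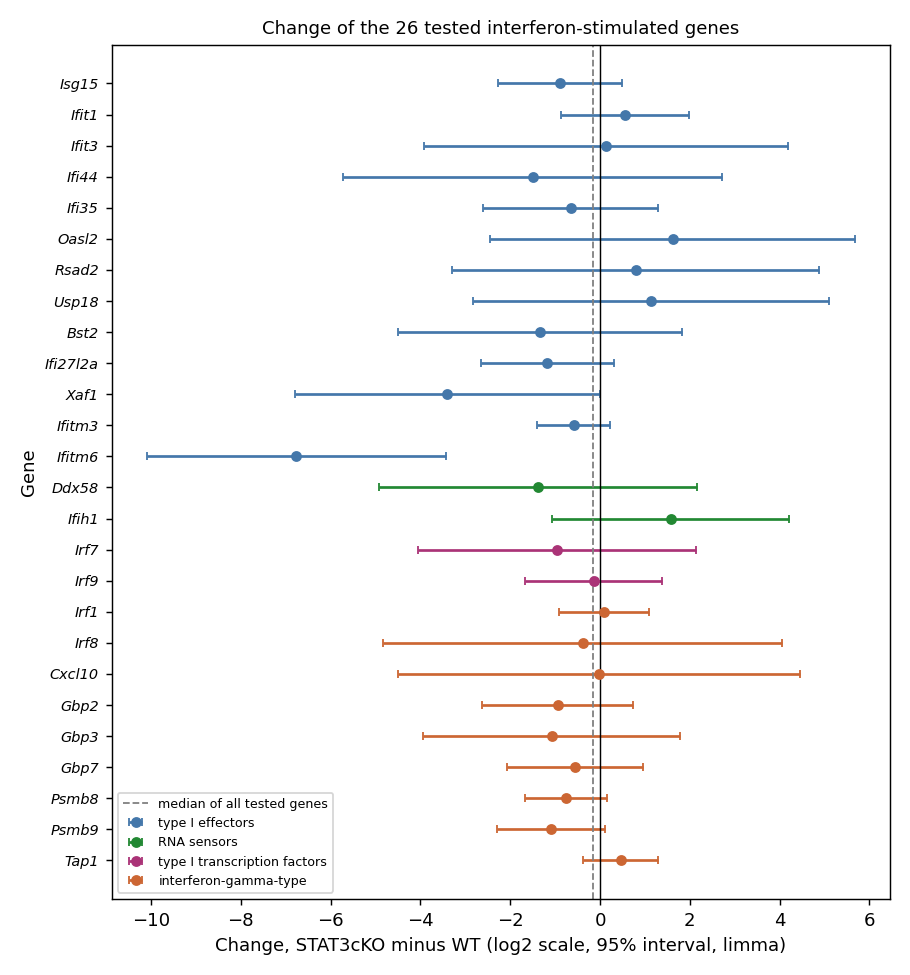
Change of the 26 tested genes, STAT3cKO minus WT on the log2 scale, with 95% intervals from limma, coloured by role, beside the median of all tested genes (dashed, −0.16). Ifitm6 has the interval that lies farthest from 0, and the widest intervals belong to genes without a read in some libraries, such as Cxcl10 and Irf8.

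Of the RNA sensors, which start interferon production when they meet viral RNA, 0 of 2 tested genes passed by limma, and 0 had an unadjusted p under 0.05. Ddx58, which encodes RIG-I, was 3.40 to 7.53 in WT and 1.29 to 8.21 in STAT3cKO (change −1.39, SE 1.68, adjusted p = 0.785). Ifih1, which encodes MDA5, was 8.06, 7.62, 3.20, 6.52 and 4.47 in WT and 8.36, 8.35, 6.78, 8.06 and 6.15 in STAT3cKO. WT 3 and 5 were low, and the groups overlapped (change 1.57, SE 1.25, adjusted p = 0.666). Dhx58, which encodes the regulator LGP2, had no read in 3 WT and 2 STAT3cKO libraries. Irf9, the DNA-binding part of the type I complex, was 8.08 to 9.54 in WT and 9.23 to 10.25 in STAT3cKO outside STAT3cKO 2, where it was 5.48 (change −0.14, SE 0.72, adjusted p = 0.961). Irf7, which amplifies the type I response, was 6.76 to 8.84 in WT and 7.57 to 9.64 in 4 STAT3cKO libraries, with no read in STAT3cKO 2 (change −0.96, SE 1.46, adjusted p = 0.83). Without STAT3cKO 2 and WT 3 both were positive, at 0.84 for Irf9 and 0.99 for Irf7.

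Of the 9 tested interferon-gamma-type genes, 0 passed by limma, 0 had an unadjusted p under 0.05, and 2 changes were positive. The median was −0.56. It was negative in every setting tried except without STAT3cKO 3, where it was 0.13, and it was −1.08 without STAT3cKO 5. The mean of these 9 genes was 9.51, 8.82, 7.0, 6.81 and 8.79 in WT and 8.29, 6.88, 5.72, 7.86 and 9.80 in STAT3cKO. WT 4 was lowest in WT and STAT3cKO 3 in STAT3cKO. These were also the libraries with the highest summed level of 8 hair matrix markers (18.17 and 18.13, against 1.47 to 15.45 in the others) and the lowest summed macrophage level of their groups (13.28 and 12.07). Without both libraries the median was −0.27. The part of hair phase and macrophages in these levels was not tested.

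The chemokines Cxcl9 and Cxcl10, which draw T cells through CXCR3, are neighbours on chromosome 5. Cxcl9 (92321347 to 92328079, minus strand) was 7.90, 6.34, 1.91, 4.71 and 7.20 in WT and 0.04, 0.06, 1.06, 0.00 and 9.88 in STAT3cKO. Every WT library held at least 2 estimated reads, STAT3cKO 1, 2 and 4 held none and STAT3cKO 3 held 1, while STAT3cKO 5 held 1667, the highest of all libraries. Cxcl9 did not meet the filter, and a fit without it gave −3.40 (SE 2.05, adjusted p = 0.627). Cxcl10 (92346638 to 92348889, minus strand) was 7.16, 4.95, 0.06, 4.89 and 5.48 in WT and 5.65, 0.06, 0.01, 6.38 and 10.36 in STAT3cKO. WT 3 and STAT3cKO 2 and 3 had no read, and STAT3cKO 5 was again highest, with 2322 estimated reads. The change of Cxcl10 was −0.02 (SE 2.12, 95% interval −4.49 to 4.45, adjusted p = 0.998), and −1.48 without STAT3cKO 5.

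STAT3cKO 5 was high in other genes of the list as well. It held the highest value of all 10 libraries for 12 of the 35 genes: 7 type I effectors, 4 interferon-gamma-type genes and Irf7. Among the 5 STAT3cKO libraries it was highest for 20. WT 1, the deepest WT library at 16800000 estimated reads, was highest of all 10 for 7 genes and highest of the WT libraries for 15. The same shares over all tested genes were not computed, so these counts do not set the list apart. STAT3cKO 5 was the deepest library, at 18500000 estimated reads, and lacked a read of 0 of the 26 tested genes. Its summed neutrophil marker level was 14.78, against 7.87 to 12.11 in the other libraries, with S100a8 at 15641 and S100a9 at 32030 estimated reads. Of the other 3 neutrophil markers Mmp8 (9.07, against at most 4.36 elsewhere) and Retnlg (9.30, against at most 7.34) were highest there, and Csf3r was not (2.60, against 5.41 in WT 5). Activated keratinocytes are also known to express S100a8 and S100a9. The 9 T and NK cell markers summed to 8.07 in STAT3cKO 5, within the range of the other libraries (1.49 to 10.06). Of these, Gzma (6.27) and Il2rb (5.40) were highest there, Klrd1, Klrb1c and Cd3g were at 5.61, 4.67 and 6.31, and Cd3e, Cd3d, Cd2 and Nkg7 had no read. The part of depth and of these cells in the STAT3cKO 5 values was not tested.

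Irf1, an early target of interferon-gamma, was even at 9.72, 9.93, 9.05, 8.48 and 9.38 in WT and 8.52, 10.04, 9.23, 8.46 and 10.76 in STAT3cKO (change 0.09, SE 0.47, 95% interval −0.91 to 1.09, adjusted p = 0.962). Irf8, a factor of myeloid and dendritic cells, had no read in WT 4 and STAT3cKO 2 and 3 and was at most 7.46 elsewhere (change −0.39, SE 2.11, adjusted p = 0.962). The guanylate-binding proteins, GTPases that attack intracellular pathogens, lie together on chromosome 3. Gbp2 was 6.78 to 10.72 in WT and 6.07 to 9.68 in STAT3cKO (change −0.94, SE 0.80, adjusted p = 0.686). Gbp7 was 7.55 to 9.90 in WT and 5.84 to 9.68 in STAT3cKO (change −0.56, SE 0.72, adjusted p = 0.795). Gbp3 was 6.48 to 9.81 in WT and 7.92 to 9.76 in 4 STAT3cKO libraries but 1.06, about 1 read, in STAT3cKO 3 (change −1.08, SE 1.35, adjusted p = 0.79). All 3 were highest in WT 1 and STAT3cKO 5 of their groups.

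Psmb8, Psmb9 and Tap1, which cut and transport peptides for class I antigen presentation, lie side by side on chromosome 17. Psmb8 was 11.65, 11.40, 11.48, 9.49 and 11.64 in WT and 10.54, 9.80, 9.52, 10.61 and 11.38 in STAT3cKO. WT 4 was low, all STAT3cKO libraries lay below the other 4 WT libraries, and the change was −0.76 (SE 0.44, 95% interval −1.68 to 0.16, adjusted p = 0.548). Psmb9 (34181987 to 34187764, minus strand) was 8.82, 8.43, 8.88, 7.98 and 9.59 in WT and 7.01, 7.45, 8.46, 7.08 and 8.22 in STAT3cKO. Its groups overlapped through WT 2 and 4 and STAT3cKO 3 and 5, and the change was −1.09 (SE 0.57, 95% interval −2.30 to 0.11, adjusted p = 0.513). Tap1 (34187553 to 34197225, plus strand), which starts beside Psmb9 on the other strand, was 11.19, 10.03, 10.06, 8.95 and 9.90 in WT and 10.60, 9.93, 10.28, 10.26 and 11.39 in STAT3cKO (change 0.47, SE 0.40, 95% interval −0.37 to 1.30, adjusted p = 0.688). The annotated genes overlap only at their starts, and the kit reads 3′ ends.

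The rest of the pathway gave no calls either. In the lists that follow, counts at an unadjusted p under 0.05 stand beside 1257 of all 11536 tested genes. Of 12 ligands, 0 could be tested. Ifng had 1 estimated read in STAT3cKO 1, Il6 had 3 in STAT3cKO 5 and Il10 had 141 and 12 in WT 1 and 2, and the other 9, Ifnb1 and Ifnk among them, had no read in any library. All 6 receptor chains were tested, with 0 calls by limma, 1 at an unadjusted p under 0.05 and a median of −1.12. That 1 was Ifngr1, the ligand-binding chain for interferon-gamma, at 10.18, 10.28, 10.82, 9.12 and 9.80 in WT and 10.36, 11.46, 11.11, 11.41 and 11.47 in STAT3cKO. Only STAT3cKO 1 lay within the WT range (change 1.12, SE 0.35, adjusted p = 0.166). Its partner Ifngr2 had a change of −0.64 (SE 0.47, adjusted p = 0.637).

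Of 17 tested genes of signal transduction 0 passed by limma and 0 had an unadjusted p under 0.05, with a median of −0.18. Stat2, the STAT of the type I complex, was 8.2 to 8.84 in STAT3cKO and 6.53 to 7.93 in WT apart from WT 3, which had no read (change 2.62, SE 1.33, adjusted p = 0.50). Irf5, a factor of macrophages, had no read in STAT3cKO 2, 3 and 5 (change −3.04, SE 1.89, adjusted p = 0.57). Of 5 feedback inhibitors 0 passed by limma and 1 had an unadjusted p under 0.05, with a median of 0.11. That was Socs3, a target of STAT3 that blocks its upstream receptors, at 8.64, 7.54, 8.61, 6.95 and 1.36 in WT and 8.96, 10.09, 8.56, 9.38 and 10.80 in STAT3cKO. WT 5 held about 1 read, and the change was 2.94 (SE 1.18, adjusted p = 0.375). Ptpn2, a phosphatase of JAK1, had no read in WT 5 (change 2.30, SE 1.36, adjusted p = 0.564).

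Among 30 tested further type I genes 0 passed by limma and 1, Ifitm1, had an unadjusted p under 0.05. Their median was −0.62, with 10 of 30 positive. Lgals3bp, a secreted glycoprotein, was 8.98 to 11.11 in WT and 3.62 and 5.86 in STAT3cKO 2 and 3 with 9.06 to 10.20 in the other STAT3cKO libraries (change −2.56, SE 1.17, adjusted p = 0.468). Among 10 tested further interferon-gamma genes 0 passed by limma, 0 had an unadjusted p under 0.05, and the median was −0.68. Igtp, a GTPase of the immunity-related family, had a change of −1.93 (SE 1.29, adjusted p = 0.595), and Gbp9 one of 2.58 with no read in WT 3 and 5 (SE 1.74, adjusted p = 0.598). Among 12 tested class I presentation genes 0 passed by limma, 2 had an unadjusted p under 0.05, and the median was −0.10. B2m, the light chain of class I molecules, was 15.59, 15.62, 15.47, 14.11 and 15.42 in WT and 14.40, 14.25, 13.81, 14.62 and 15.44 in STAT3cKO (change −0.73, SE 0.32, adjusted p = 0.42). Psme2, a subunit of the proteasome activator, was 9.58 to 10.96 in WT and 10.58 to 11.48 in STAT3cKO (change 0.75, SE 0.31, adjusted p = 0.384).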

How the data were processed

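Total RNA of whole skin was sequenced with a 3′ kit, per the labels' protocols. The authors deposited 1 table per library. The file headers name no unit. The deposited values behave as log2 of scaled reads plus 1. Bowtie2, bedtools and mm10 are named in the submitters' processing notes. For annotation, scaling and strand the sources used here give nothing. The exons of 13 of the 35 genes overlap another gene. The worth of 1 read was estimated per library from the spacing of low values (87.4 to 100.0% of values up to 20 reads were whole within 0.15), and under 0.5 of a read counted as no read. Such precision covers counting error only. Of 44 repeated symbols the earlier entry was used.

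limma 3.58.1 in R 4.3.3 was fitted to the 11536 entries with at least 5 in at least 5 libraries (group as the only term, trend and robust estimation, Benjamini-Hochberg adjustment). All adjusted p-values are from limma. The steps were tested on simulated data. Positions are from the GENCODE mouse annotation on mm10, and promoters from RefSeq. The list, the pathway lists, the markers and the alternatives were chosen with earlier results of these data known. All genes of the list could be named, and from each pathway list up to 4 called genes or the 2 with the lowest p. Ifitm2, the single cell markers and the near copies were named after their values were seen.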

Additional observations from a re-analysis of the deposited data

Results flagged for a closer look

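In 68 groups of 5 libraries, 1 gene and 1 genotype at a time, 12 had a highest or lowest library set apart from the other 4 by a gap that filled more than 0.71 of the group's range. For normally spread values chance sets off about 1 in 20 such groups. Many of these groups hold values of no read at about 0, so that rate need not hold here. Genes of 1 library are also not independent. STAT3cKO 2, which lacked reads of 17 of the 35 genes, gave 5 of the 12: it was lowest in STAT3cKO for Ifit3 (0.06, next 7.35), Oasl2 (0.06, next 8.10), Usp18 (0.06, next 6.41), Irf7 (0.06, next 7.57) and Irf9 (5.48, next 9.23). STAT3cKO 5 was highest for Cxcl9 (9.88, next 1.06) and Mx1 (7.54, next 1.80). STAT3cKO 3 was lowest for Gbp3 (1.06, next 7.92), and STAT3cKO 1 was highest for Mx2 (5.65, next 0.06). In WT, WT 1 was highest for Oas2 (6.42, next 0.08), WT 3 lowest for Ddx58 (3.40, next 6.42) and WT 4 lowest for Psmb8 (9.49, next 11.40).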

How the results depend on the processing

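Ifitm6 was the 1 gene of the list called, and that count was 0 with no filter, a stricter filter (which Ifitm6 did not meet), no-read values missing, the depth class as a term, the shallower libraries alone, without STAT3cKO 2 and WT 3, and without WT 4 and STAT3cKO 3 (chosen after seeing the data). Ifitm6 stayed called after quantile normalization (−5.93, adjusted p = 0.0237) and median centring (−6.77, adjusted p = 0.049). It also stayed called with a pseudocount of 16 (adjusted p = 0.0162), with neither trend nor robust estimation (adjusted p = 0.0242) and with array weights (−5.72, adjusted p = 0.0261). The count was 1 in the deeper libraries alone too, where the gene was Ifi27l2a. Leaving out 1 library at a time gave 0 to 1, with the change of Ifitm6 at −7.4 to −6.39. Over all tested genes, 114 were called, against 181 after quantile normalization, 175 with a pseudocount of 16, 44 with neither trend nor robust estimation, 375 with array weights, 182 in the deeper and 16 in the shallower libraries alone, and 61 to 207 without 1 library (62 without WT 1 or WT 2, 207 without WT 4, 61 without STAT3cKO 1, 72 without STAT3cKO 5). The cause was not tested. Quantile normalization moved the median of all genes from −0.16 to −0.01.

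With the replicate number as a block, 66 genes and 0 of the list were called. Same-numbered libraries did not deviate together (r −0.155 to 0.016), and 0 of 10 correlated best with their own number, so the numbers were not read as pairs.

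No gene whose direction reversed was called in any of these settings. After quantile normalization the changes were 0.30 for Irf7, 0.17 for Irf9 and 1.39 for Cxcl10, which was 0.56 with a pseudocount of 16. With no-read values missing they were 1.42 for Ifi44, 0.24 for Bst2, 0.74 for Irf7, 1.23 for Irf8, 1.84 for Cxcl10 and 1.23 for Irf5. With array weights they were 0.28 for Bst2, 0.65 for Irf7, 0.53 for Irf9, −0.19 for Irf1, 0.34 for Irf8 and 1.14 for Cxcl10. Without STAT3cKO 2 and WT 3 they were 0.63 for Bst2, 0.99 for Irf7, 0.84 for Irf9 and −0.13 for Irf1. Without WT 4 and STAT3cKO 3 they were −0.18 for Ifit3, −0.07 for Irf1, 1.20 for Cxcl10 and 0.00 for Gbp3. In the deeper libraries alone they were 0.04 for Isg15, −0.78 for Ifit3, 0.22 for Ifi44, 1.05 for Bst2, −0.73 for Ifih1, 1.17 for Irf7, 0.84 for Irf9, −0.21 for Irf1, 2.32 for Cxcl10, 0.18 for Igtp and −0.04 for Gbp9. In the shallower they were 0.63 for Ifi35, −1.32 for Rsad2 and −0.37 for Usp18.

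Leaving out 1 library gave −1.48 to 1.10 for Cxcl10, −1.52 to 0.65 for Irf8, −1.40 to 1.70 for Ifit3, −0.25 to 0.33 for Irf1, −0.45 to 2.23 for Rsad2, −0.51 to 0.68 for Irf9, −0.05 to 2.59 for Usp18, −2.01 to 0.24 for Bst2, −1.65 to 0.74 for Irf7, −1.77 to 0.41 for Gbp3 and −1.12 to 0.02 for Ifi35. The median of the type I effectors stayed between −1.03 and −0.40, and that of the interferon-gamma-type genes between −1.17 and 0.13. Of the 35 genes, 19 lacked a read in at least 1 library. STAT3cKO 2, at 7440000 estimated reads, lacked 22.7% of all tested genes, and WT 5, at 7130000, lacked 8.52%. The part of depth in the missing reads was not tested.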

Other observations

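Psmb9 and Tap1 start side by side in opposite directions, and within each library their levels can be compared directly. On the log2 scale and in order of replicate number, Tap1 minus Psmb9 was 2.37, 1.6, 1.18, 0.97 and 0.31 for WT and 3.59, 2.48, 1.82, 3.18 and 3.16 for STAT3cKO. WT averaged 1.29 ± 0.77 and STAT3cKO 2.85 ± 0.70 (SD, n = 5 each), a difference of 1.56. STAT3cKO 3 lay within the WT range and the other 4 STAT3cKO libraries above it. Psmb8 minus Psmb9 averaged 2.39 ± 0.60 in WT and 2.73 ± 1.05 in STAT3cKO, a difference of 0.33. Tap1 and Psmb9 were 1 of 6 pairs compared and were chosen after their values were seen. Their difference is therefore a description, and no p-value is given.

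Oas1a and Oas1g gave 68, 4, 0, 0 and 0 and 40, 5, 0, 0 and 0 estimated reads in the WT libraries. In the STAT3cKO libraries they gave 20, 9, 0, 33 and 110 and 14, 9, 0, 29 and 35. The 2 genes thus had reads in the same 6 libraries.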
